A study of Mus musculus with 12 samples.

Results

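The H3K9 demethylases described here are 7 genes, Kdm1a, Kdm3a, Kdm3b, Jmjd1c, Kdm4a, Kdm4b and Kdm4c, of 43346 gene IDs in the count table, chosen by name and matched to Ensembl IDs through GENCODE M21. All 7 passed the filter on low counts that left 17148 genes to test. The 12 libraries come from mouse embryonic stem cells in 4 groups of 3. C57BL/6J and DBA/2J are the parental inbred strains, B6 and D2 in the plots. B6-13D2, labelled B6.D2-(rs30079041-rs51756099)/Bakr, carries a chromosome 13 segment of D2 on the B6 background. D2-13B6 is the reverse, with a segment from B6 in an otherwise D2 genome, and its labels give D2.B6-(rs29224292-rs13469455)/Bakr whereas the series text ends the segment at another marker. All groups grew in the same medium, with 15% serum, LIF, 1 µM PD0325901 (a MEK inhibitor) and 3 µM CHIR99021 (a GSK3 inhibitor). Per the protocol the libraries of a strain are separate cultures of 1 cell line, so strain and line cannot be told apart and p-values measure the spread between cultures; the titles call the replicates technical. The titles give C57BL/6J replicate 3 another line name than C57BL/6J replicates 1 and 2, and the DBA/2J titles and the DBA/2J cell line field name different lines.

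Methylation of lysine 9 on histone H3 marks silent chromatin, is laid down by SET domain methyltransferases and is read by HP1 proteins. Demethylases reverse it through different chemistries. Kdm1a (LSD1) is a flavin-dependent amine oxidase that works with the CoREST corepressor and acts mainly on H3K4, with H3K9 activity described in some complexes. The Kdm3 and Kdm4 families carry a Jumonji C domain that needs iron, oxygen and 2-oxoglutarate. Kdm3 enzymes remove lower methylation states of H3K9, while Kdm4 enzymes remove the trimethyl mark and also act on H3K36. Activity of Jmjd1c on H3K9 is debated. In mouse embryonic stem cells, Kdm3a and Kdm4c are known for keeping pluripotency genes free of H3K9 methylation, and Kdm1a for restraining genes of the early embryo.

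Libraries held 22184196 to 36411799 expected counts, and the 7 genes had 806 to 9067 counts in a library. Within a group, the correlation across genes was 0.988 to 0.994, and no pair of libraries agreed within sampling noise. Stem cell markers were abundant in every library: the 8 genes fixed for that cell type (Pou5f1, Nanog, Sox2, Zfp42, Esrrb, Klf4, Tfcp2l1 and Dppa5a) summed to 4645 to 4964 CPM in C57BL/6J, 3201 to 3286 in DBA/2J, 5382 to 5637 in B6-13D2 and 3900 to 3948 in D2-13B6. CPM are counts scaled to a common library size with TMM factors. Fibroblast or feeder markers were abundant as well. Their 8 genes (Col1a1, Col1a2, Col3a1, Thy1, Lum, Dcn, Postn and Pdgfrb) summed to 9383 to 10191 CPM in C57BL/6J, 14177 to 16967 in DBA/2J, 3095 to 3182 in B6-13D2 and 7731 to 8055 in D2-13B6. None of these 8 was at 0 in any group, and 6 of 8 reached a mean of 1 CPM in B6-13D2 against 8 of 8 elsewhere. Lists for primitive endoderm, trophectoderm, neural and mesodermal cells summed to 8.39 to 128 CPM. The stem cell sum thus ran from DBA/2J (lowest) through D2-13B6 and C57BL/6J to B6-13D2 (highest). The fibroblast sum was highest in DBA/2J and lowest in B6-13D2. Not every marker followed its sum. Klf4 was highest in C57BL/6J (418 CPM, against 322 in B6-13D2). Zfp42 was higher in D2-13B6 (75.5) than in C57BL/6J (67.5), and Dcn was highest in D2-13B6 (2.94, against 2.81 in DBA/2J). The other markers on both lists followed these orders. The part of these differences in the results that follow was not tested. In bulk RNA, fewer cells of a type and less RNA per cell cannot be told apart. The 6 congenic libraries also carry a column prefix that the parental ones lack, and any batch it records holds whole groups and cannot be told apart from congenic status.

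**Figure D1:**
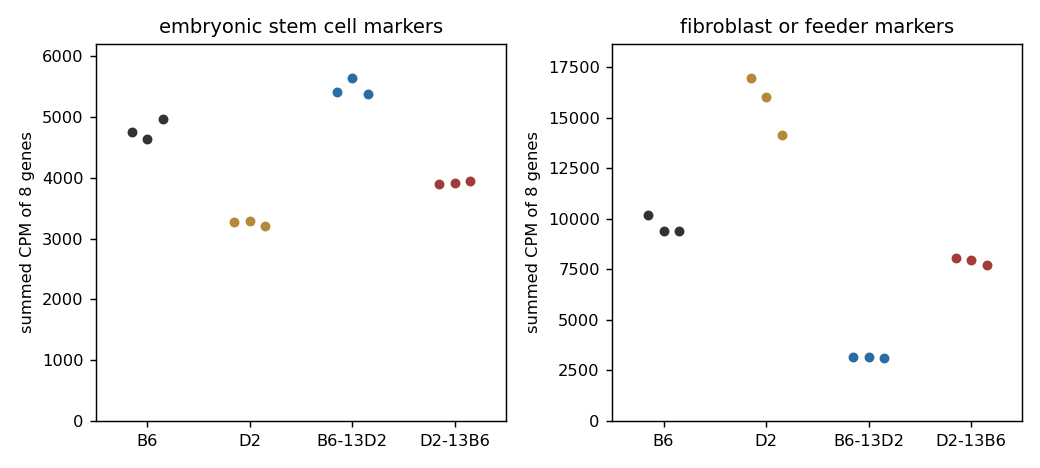
Summed CPM of 8 embryonic stem cell markers (left) and of 8 fibroblast or feeder markers (right) in each library, 1 point per library, by group. The stem cell sum was lowest in DBA/2J (3201 to 3286) and highest in B6-13D2 (5382 to 5637), and the fibroblast sum was highest in DBA/2J (14177 to 16967) and lowest in B6-13D2 (3095 to 3182). Both sums were higher in C57BL/6J than in D2-13B6. Of the fibroblast markers, Col1a1, Col1a2, Thy1 and Pdgfrb were also higher in C57BL/6J, whereas Col3a1, Lum, Dcn and Postn were higher in D2-13B6.

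Levels between genes were compared as CPM per kb of merged exon length. In C57BL/6J, Kdm1a was the most abundant at 57.3 CPM per kb ± 2.11 (SD, n = 3). Kdm3a followed at 25.2 ± 0.996, Kdm4a at 21.1 ± 0.400 and Kdm3b at 15.2 ± 0.230. Kdm4c (13.0 ± 0.672), Jmjd1c (10.7 ± 0.134) and Kdm4b (9.48 ± 0.341) were the lowest. Kdm1a led in every group, with 36.1% to 39.0% of the summed level of the 7 genes by group mean. That sum was 152 CPM per kb ± 2.49 in C57BL/6J, 119 ± 3.42 in DBA/2J, 149 ± 2.48 in B6-13D2 and 130.4 ± 1.55 in D2-13B6, so it was lowest in DBA/2J. With the length of the longest coding transcript, Kdm3b (33.8 CPM per kb in C57BL/6J) stood above Kdm4a (26.2) and Jmjd1c (22.1) above Kdm4c (18.1), so the middle of the order depends on the length used.

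None of the 7 genes lies on chromosome 13. Positions are those of GENCODE M21 (GRCm38), and the submitters' processing notes name mm10. Kdm1a (ENSMUSG00000036940) is at chromosome 4, 136550540 to 136602723, Kdm4a (ENSMUSG00000033326) at 118136957 to 118180043 and Kdm4c (ENSMUSG00000028397) at 74242497 to 74405860 of the same chromosome. Kdm3a (ENSMUSG00000053470) is at chromosome 6, 71588972 to 71632990, and Jmjd1c (ENSMUSG00000037876) at chromosome 10, 67096125 to 67256326. Kdm3b (ENSMUSG00000038773) is at chromosome 18, 34777047 to 34838660, and Kdm4b (ENSMUSG00000024201) at chromosome 17, 56326062 to 56402870. All are protein coding, and the counts of all 7 were whole, to within 1e-06, in all 12 libraries. The lincRNA Gm26538 runs against Kdm3b and shares 3468 bases, 24.6% of its merged exons, with a mean of 74.3 expected counts. Whether counting used the strand is not given in the sources used here, so Kdm3b is uncertain to that extent.

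**Figure D2:**
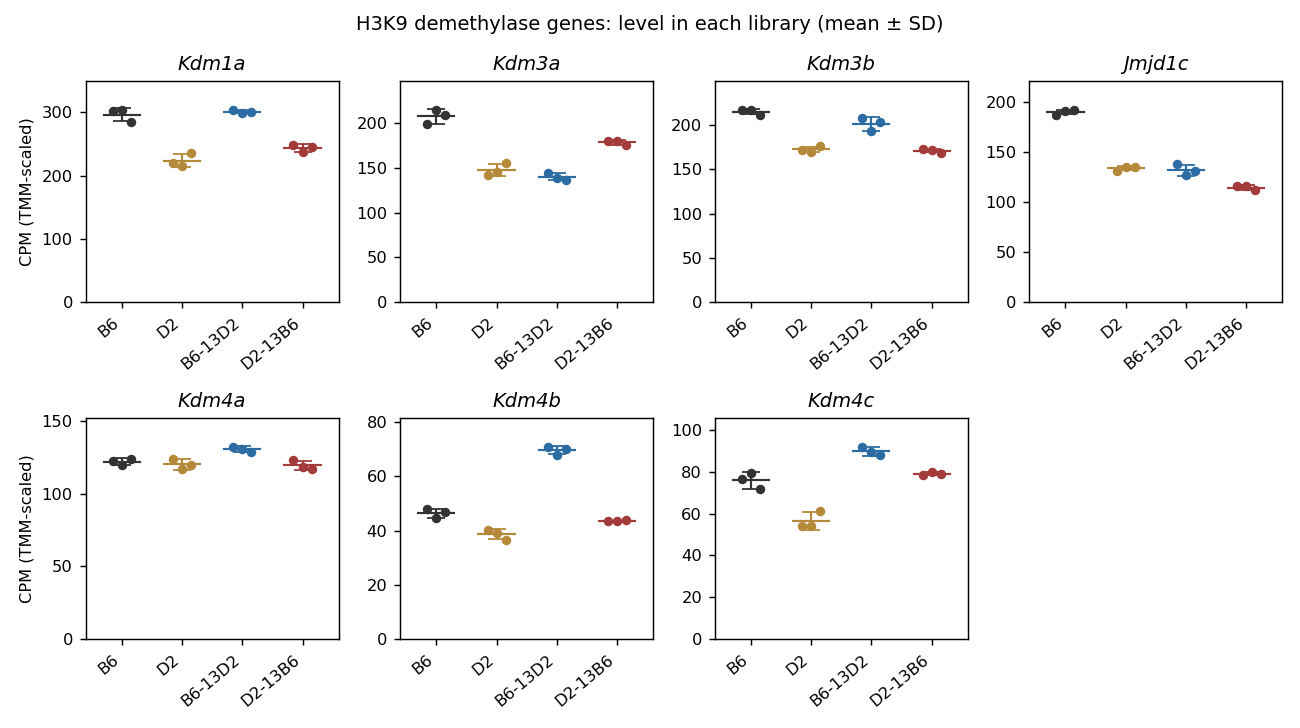
Level of each H3K9 demethylase gene in CPM (vertical axis, from 0) in the 12 libraries, 1 point per library, with the mean and SD of each group. Kdm3a was lowest in the 2 groups with the D2 segment, Jmjd1c stood alone at the top in C57BL/6J, and Kdm4b stood alone at the top in B6-13D2.

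The comparison of the parental lines asks how C57BL/6J and DBA/2J cells differ. Of the 7 genes, 6 were called (edgeR quasi-likelihood test, Benjamini-Hochberg adjusted p under 0.05), and all 6 were lower in DBA/2J. Of all tested genes, 60.0% were called, 29.8% in the higher and 30.3% in the lower direction. The median log2 difference of the 7 genes was -0.41, against 0.01 over all tested genes. Kdm3a, Jmjd1c, Kdm4c and Kdm1a had the larger differences, Kdm3b and Kdm4b the smaller ones, and Kdm4a was not called. The libraries of the groups did not overlap for 6 of 7 genes, and for 62.0% of all tested genes. The fibroblast markers were higher and the stem cell markers lower in DBA/2J, as given above.

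The comparison of B6-13D2 with C57BL/6J asks what accompanies the D2 segment on the B6 background. Kdm3a and Jmjd1c fell by 32.4% and 30.5%, Kdm4b rose by 0.59 on the log2 scale, Kdm4c rose by 18.3%, and Kdm1a stayed at 301 against 297 CPM. In all, 6 of 7 genes were called, 3 higher and 3 lower, beside 58.3% of all tested genes (25.4% higher, 32.9% lower). Libraries of the groups did not overlap for 6 of the 7, and for 63.2% of all tested genes. The calls of Kdm3b, -0.09 on the log2 scale, and Kdm4a, 0.10, were small. That of Kdm3b was lost with RLE size factors (-0.031, edgeR adjusted p = 0.447), DESeq2 (-0.031), library totals only (-0.018), both other filters and only the libraries compared. It was also lost without C57BL/6J replicate 1 (edgeR adjusted p = 0.0701), C57BL/6J replicate 2 (0.075), DBA/2J replicate 1 (0.0629) or B6-13D2 replicate 2 (0.159, with a value of -0.061). The value of Kdm4a was 0.16 with RLE size factors (edgeR adjusted p = 0.00059), 0.16 with DESeq2 and 0.18 with library totals only, and its call was lost without C57BL/6J replicate 2 (edgeR adjusted p = 0.0749) or B6-13D2 replicate 1 (0.0611).

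The comparison of D2-13B6 with DBA/2J asks what accompanies the B6 segment on the D2 background. Kdm4c rose by 40.5%, Kdm3a by 21.2%, Kdm4b by 12.2% and Kdm1a by 8.87%, while Jmjd1c fell by 14.5%. These 5 calls, 4 higher and 1 lower, stand beside 57.3% of all tested genes (27.6% higher, 29.7% lower). The same 5 genes, and 62.9% of all tested genes, had libraries that did not overlap. Kdm3b and Kdm4a were not called, with log2 differences of -0.01 (SE 0.035) and -0.0066 (SE 0.035). The call of Kdm1a, 0.12 on the log2 scale, was lost at a mean CPM of at least 1 (edgeR adjusted p = 0.0588) and without DBA/2J replicate 2 (0.0733), and its value was 0.19 with library totals only (0.000474). Both congenic comparisons use a different parental group, while the parental comparison shares C57BL/6J with one and DBA/2J with the other.

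**Figure D3:**
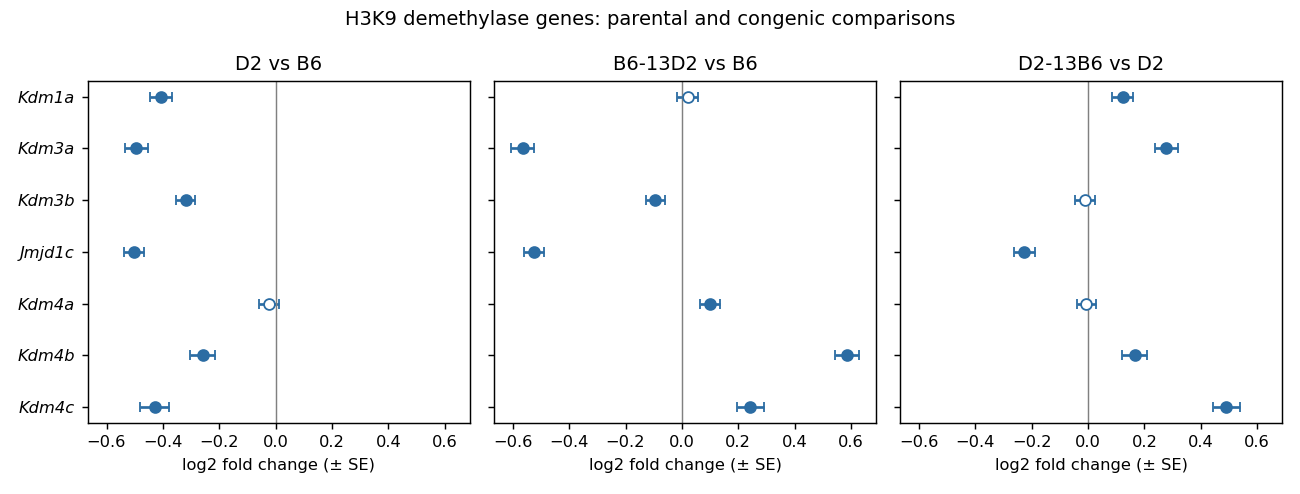
Log2 fold change with its standard error (horizontal axis) of the 7 genes in DBA/2J against C57BL/6J, B6-13D2 against C57BL/6J and D2-13B6 against DBA/2J, filled where the edgeR adjusted p was under 0.05. All 6 called genes were lower in DBA/2J than in C57BL/6J, while Kdm3a moved down with the D2 segment on B6 (-0.57) and up with the B6 segment on D2 (0.28).

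Kdm1a, the flavin-dependent enzyme, was higher on the B6 background. Its libraries had 302.0, 303.9 and 284.1 CPM in C57BL/6J, 303.6, 298.9 and 299.9 in B6-13D2, 248.5, 237.3 and 245.2 in D2-13B6 and 220.7, 216.1 and 235.2 in DBA/2J. Every library on the B6 background was above every library on the D2 background. Kdm1a was lower in DBA/2J than in C57BL/6J by a log2 difference of -0.41 (SE 0.038, edgeR adjusted p 5.84e-08). Its difference between B6-13D2 and C57BL/6J was 0.02 (SE 0.038, edgeR adjusted p 0.669), and it changed sign without C57BL/6J replicate 3, the library with the other line name (-0.0084). It was called with library totals only (0.10, edgeR adjusted p 0.0415). The difference between D2-13B6 and DBA/2J was called, at 0.12 (SE 0.038, edgeR adjusted p 0.0101), and these libraries did not overlap. C57BL/6J and B6-13D2 were thus the neighbours in its order of levels that did not differ beyond their spread.

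Kdm3a, which removes lower methylation states of H3K9 and is a known target of the hypoxia response, followed the segment. Its libraries had 198.2, 214.3 and 208.7 CPM in C57BL/6J and 179.6, 180.0 and 175.0 in D2-13B6, the groups with the B6 segment. With the D2 segment they had 141.6, 144.9 and 154.8 CPM in DBA/2J and 144.6, 138.7 and 136.5 in B6-13D2. Every library with the B6 segment was above every library with the D2 segment. The log2 difference was -0.57 (SE 0.040, edgeR adjusted p 1.24e-09) in B6-13D2 relative to C57BL/6J and 0.28 (SE 0.040, edgeR adjusted p 1.14e-05) in D2-13B6 relative to DBA/2J. Among groups with the same segment, B6-13D2 and DBA/2J differed by -0.07 (SE 0.041, edgeR adjusted p 0.121), and their libraries overlapped. D2-13B6 stayed below C57BL/6J by -0.22 (SE 0.040, edgeR adjusted p 0.000142), or -0.11 with library totals only (edgeR adjusted p 0.0239).

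All 7 genes lie outside chromosome 13. As examples, the sequences before the start sites of Kdm3a, which followed the segment, and Kdm1a, which differed mainly by background, are shown. They are RefSeq promoter windows of GRCm38.p6, a C57BL/6J genome, cut where GENCODE M21 places the first exon, on the minus strand and 5′ to 3′. Kdm3a is chr6:71632991-71633167 and Kdm1a chr4:136602724-136602973. Capitals mark GGGCGG (a GC box) and CCAAT on either strand; no match overlapped another.
Kdm3a: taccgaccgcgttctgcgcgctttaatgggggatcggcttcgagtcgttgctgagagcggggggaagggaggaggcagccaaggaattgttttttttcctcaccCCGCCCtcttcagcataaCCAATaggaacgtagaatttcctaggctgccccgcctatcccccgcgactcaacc
Kdm1a: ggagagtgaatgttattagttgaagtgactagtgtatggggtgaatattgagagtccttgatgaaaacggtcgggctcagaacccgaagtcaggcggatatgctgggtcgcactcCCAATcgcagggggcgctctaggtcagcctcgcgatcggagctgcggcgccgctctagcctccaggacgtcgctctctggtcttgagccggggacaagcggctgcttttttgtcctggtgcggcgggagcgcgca
The Kdm3a stretch of 177 bases holds 14 CG dinucleotides, 1 GC box and 1 CCAAT, and the Kdm1a stretch of 250 bases holds 21 CG dinucleotides and 1 CCAAT. The hypoxia response core, ACGTG or GCGTG on either strand, had no match in either stretch, whereas the whole windows of 300 bases, which run into the first exon, held 1 match for Kdm3a and 3 for Kdm1a. Of 32851 RefSeq windows of 300 bases, 35.7% held GGGCGG, 37.4% CCAAT and 43.8% the hypoxia response core, with a median of 7 CG dinucleotides. A match is a description of letters, and D2 sequence was not used here. Windows were found for 5 of the 7 genes.

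The other Kdm3 genes had patterns of their own. Jmjd1c had 187.5, 190.8 and 192.1 CPM in C57BL/6J, 131.5, 135.1 and 135.6 in DBA/2J, 137.9, 127.0 and 131.3 in B6-13D2 and 116.0, 116.0 and 111.8 in D2-13B6. C57BL/6J libraries stood apart above all others, and D2-13B6 libraries stood apart below. Its log2 difference was -0.50 (SE 0.036, edgeR adjusted p 1.76e-09) in DBA/2J against C57BL/6J, -0.53 (SE 0.036, edgeR adjusted p 6.37e-10) in B6-13D2 relative to C57BL/6J and -0.23 (SE 0.036, edgeR adjusted p 3.34e-05) in D2-13B6 relative to DBA/2J. The largest was -0.73 (SE 0.036, edgeR adjusted p 1.1e-11) in D2-13B6 relative to C57BL/6J. B6-13D2 and DBA/2J did not differ beyond their spread (-0.02, SE 0.036, edgeR adjusted p 0.597).

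Kdm3b had 216.6, 216.7 and 211.0 CPM in C57BL/6J, 207.9, 192.5 and 203.2 in B6-13D2, 171.0, 169.7 and 175.8 in DBA/2J and 172.4, 171.6 and 168.5 in D2-13B6. As for Kdm1a, every library on the B6 background was above every library on the D2 background. The log2 difference between DBA/2J and C57BL/6J was -0.32 (SE 0.035, edgeR adjusted p 3.91e-07), and between D2-13B6 and DBA/2J it was -0.01 (SE 0.035, edgeR adjusted p 0.814). Summed per length, the Kdm3 family had 51.1 CPM per kb ± 1.08 in C57BL/6J, 37.6 ± 1.14 in DBA/2J, 38.7 ± 1.24 in B6-13D2 and 40.2 ± 0.615 in D2-13B6 (SD, n = 3). Kdm3a made up 53.9% ± 0.0596 of that sum in D2-13B6 and 44.0% ± 0.779 in B6-13D2, with 49.3% ± 0.941 in C57BL/6J and 47.5% ± 0.777 in DBA/2J.

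In the Kdm4 family, whose members remove the trimethyl mark, Kdm4a was the steadiest. It had 122.6, 119.6 and 124.2 CPM in C57BL/6J, 123.9, 116.9 and 119.8 in DBA/2J, 123.0, 118.3 and 117.2 in D2-13B6 and 132.4, 131.0 and 129.0 in B6-13D2. The first 3 of these groups overlapped and B6-13D2 stood above them. C57BL/6J, DBA/2J and D2-13B6 did not differ beyond their spread: the log2 difference was -0.02 (SE 0.035, edgeR adjusted p 0.570) in DBA/2J against C57BL/6J and -0.03 (SE 0.035, edgeR adjusted p 0.465) in D2-13B6 relative to C57BL/6J.

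Kdm4b, described as induced by hypoxia, had 47.8, 44.6 and 46.8 CPM in C57BL/6J, 40.3, 39.2 and 36.7 in DBA/2J, 43.4, 43.4 and 43.7 in D2-13B6 and 70.9, 67.9 and 70.0 in B6-13D2. The lowest B6-13D2 library was far above the highest library of any other group. The log2 difference was 0.59 (SE 0.043, edgeR adjusted p 1.69e-09) in B6-13D2 relative to C57BL/6J, 0.84 (SE 0.043, edgeR adjusted p 3.75e-12) in B6-13D2 relative to DBA/2J and -0.26 (SE 0.045, edgeR adjusted p 8.39e-05) in DBA/2J against C57BL/6J. D2-13B6 and C57BL/6J differed by -0.09 (SE 0.044, edgeR adjusted p 0.0764), although their libraries did not overlap. It was -0.04 with RLE size factors and 0.01 with library totals only, so its direction depends on the scaling. Without C57BL/6J replicate 2 that difference was called (edgeR adjusted p 0.0359), as it was without DBA/2J replicate 3 (0.0438).

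Kdm4c, linked to Nanog expression in stem cells, had 76.6, 79.4 and 71.6 CPM in C57BL/6J, 54.1, 53.9 and 61.4 in DBA/2J, 92.0, 89.6 and 87.8 in B6-13D2 and 78.6, 80.1 and 78.7 in D2-13B6. DBA/2J stood apart below the other groups and B6-13D2 above them. The log2 difference was -0.43 (SE 0.050, edgeR adjusted p 9.24e-07) in DBA/2J against C57BL/6J, 0.24 (SE 0.048, edgeR adjusted p 0.000313) in B6-13D2 relative to C57BL/6J and 0.49 (SE 0.049, edgeR adjusted p 1.23e-07) in D2-13B6 relative to DBA/2J. D2-13B6 and C57BL/6J overlapped and differed by 0.06 (SE 0.048, edgeR adjusted p 0.294), but this difference was called with RLE size factors (0.12, edgeR adjusted p 0.046) and with library totals only (0.17, edgeR adjusted p 0.00787), as well as with only the libraries compared (0.13, edgeR adjusted p 0.0146). Per length the 3 Kdm4 genes summed to 43.6 CPM per kb ± 0.439 in C57BL/6J, 38.4 ± 0.795 in DBA/2J, 52.3 ± 0.813 in B6-13D2 and 43.1 ± 0.467 in D2-13B6. Kdm4b made up 27.2% ± 0.487 of the sum in B6-13D2, against 21.7% ± 0.656 in C57BL/6J, 20.6% ± 1.11 in DBA/2J and 20.6% ± 0.293 in D2-13B6.

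The remaining pairs of groups compare backgrounds with the segment held the same and the congenic lines with each other. B6-13D2 against DBA/2J, which share the D2 segment, called 5 of 7 genes, all 5 higher in B6-13D2, beside 74.6% of all tested genes (36.7% higher, 38.0% lower), and libraries did not overlap for 5 of 7 beside 75.5%. D2-13B6 against C57BL/6J, which share the B6 segment, called 4 of 7, all lower in D2-13B6 (Kdm1a, Kdm3a, Kdm3b and Jmjd1c), beside 59.0% (24.5% higher, 34.6% lower). Libraries did not overlap for 5 of 7, beside 65.2%. Between the congenic lines all 7 were called, and the libraries of all 7 did not overlap, beside 70.2% and 74.9% of all tested genes. Of these, 6 were lower in D2-13B6 (31.8% of all tested genes), and Kdm3a alone was higher (38.4%), at 0.35 (SE 0.040, edgeR adjusted p 4.03e-07). These 3 comparisons reuse the libraries of the earlier ones.

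Averaging over the other factor gives the segment and the background difference of each gene. For the segment, D2 minus B6, 4 of 7 genes were called, 3 lower and 1 higher, beside 43.9% of all tested genes (27.3% lower, 16.5% higher). Kdm3a differed most, at -0.42 (SE 0.028, edgeR adjusted p 2.73e-09), followed by Kdm4b at 0.21 (SE 0.031, edgeR adjusted p 2.61e-05), Jmjd1c at -0.15 (SE 0.025, edgeR adjusted p 0.000118) and Kdm4c at -0.12 (SE 0.034, edgeR adjusted p 0.00719). For Kdm4b and Kdm4c this mean joins segment differences of opposite sign on the 2 backgrounds, and for Jmjd1c as well, whereas for Kdm3a both had the same sign. Kdm1a (-0.05, edgeR adjusted p 0.132; 0.0333 without DBA/2J replicate 3), Kdm3b (-0.04, edgeR adjusted p 0.181) and Kdm4a (0.05, edgeR adjusted p 0.0928) were not called. Kdm4a was called with RLE size factors (0.08, edgeR adjusted p 0.00995), with DESeq2 (0.08) and at a mean CPM of at least 1 (0.09, edgeR adjusted p 0.00405).

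For the background, D2 minus B6, all 7 genes were called lower on the D2 background, beside 73.5% of all tested genes, 34.7% in the lower and 38.7% in the higher direction. The difference was -0.47 (SE 0.031, edgeR adjusted p 1.71e-10) for Kdm4b, -0.36 (SE 0.027, edgeR adjusted p 1.19e-09) for Kdm1a, -0.35 (SE 0.025, edgeR adjusted p 5.97e-10) for Jmjd1c, -0.31 (SE 0.034, edgeR adjusted p 2.7e-07) for Kdm4c and -0.28 (SE 0.024, edgeR adjusted p 1.03e-08) for Kdm3b. Kdm4a and Kdm3a were at -0.08 and -0.07, and both lost the call with RLE size factors (edgeR adjusted p 0.0518 and 0.108), DESeq2 and library totals only (-0.042 for Kdm4a and -0.037 for Kdm3a), which left 5 of 7. The call of Kdm3a was also lost without C57BL/6J replicate 2, DBA/2J replicate 1, DBA/2J replicate 2, B6-13D2 replicate 1 or D2-13B6 replicate 3, with edgeR adjusted p from 0.0599 to 0.0667. Both congenic groups minus both parental groups called 5 of 7 genes, 3 higher (Kdm1a, Kdm4b and Kdm4c) and 2 lower (Kdm3a and Jmjd1c), beside 64.5% of all tested genes (31.1% higher, 33.4% lower).

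**Figure D4:**
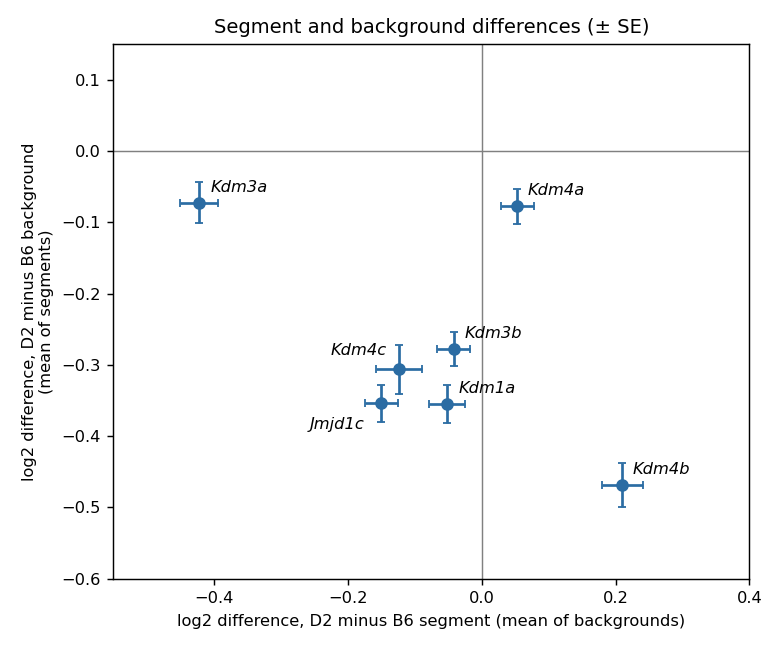
Log2 difference of the D2 minus the B6 segment, averaged over backgrounds (horizontal axis), against that of the D2 minus the B6 background, averaged over segments (vertical axis), for the 7 genes, with standard errors from the edgeR fit. Kdm3a lies far to the left (-0.42) with a background difference of -0.07, while Kdm1a (-0.36) and Kdm3b (-0.28) lie near the vertical axis.

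Genes around the members were compared on the same scale. Kdm3a had 41 tested genes within 2 Mb, with a median log2 difference of 0.0042 in B6-13D2 against C57BL/6J and -0.0094 in D2-13B6 against DBA/2J, beside -0.57 and 0.28 for Kdm3a itself. Around Kdm4b, 56 tested genes had a median of 0.18 in B6-13D2 against C57BL/6J, with 36 of them higher, beside 0.59 for Kdm4b. Around Kdm4c, 9 tested genes had a median of -0.86 in B6-13D2 against C57BL/6J and -1.71 in D2-13B6 against DBA/2J, while Kdm4c was at 0.24 and 0.49. Around Jmjd1c, 11 tested genes had medians of -0.29 and -0.22 in these comparisons, and 0.33 in DBA/2J against C57BL/6J, where Jmjd1c was at -0.50. Medians over the members' chromosomes (4, 6, 10, 17 and 18) lay between -0.15 and 0.08 in the parental and both congenic comparisons.

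Partners and opponents of these enzymes were taken from fixed lists. Of 12 partners of Kdm1a in the CoREST complex, 9 were called in DBA/2J against C57BL/6J, all lower, with a median of -0.17. The lowest was Zfp217, a zinc finger protein of CoREST complexes, at -0.73 (SE 0.039, edgeR adjusted p 4.46e-11), and the called gene nearest 0 was the scaffold Rcor1 at -0.11 (SE 0.040). The deacetylases Hdac1 and Hdac2 were at -0.44 and -0.41, beside -0.41 for Kdm1a, but at 0.32 and -0.13 in D2-13B6 against DBA/2J, beside 0.12 for Kdm1a. In B6-13D2 against C57BL/6J, 7 of 12 were called, 4 higher and 3 lower, from Zfp217 at 0.37 to Rcor3 at -0.23. Between D2-13B6 and DBA/2J, 9 were called, 6 higher and 3 lower, from Gse1 at 0.98 to Rcor3 at -0.24. Counts of Gse1, Rcor3 and Hdac1 were not whole in every library, so reads shared with other loci make them uncertain. Of all tested genes, 60.0%, 58.3% and 57.3% were called in these 3 comparisons, close to the share of the list in B6-13D2 against C57BL/6J. By direction these were 29.8% higher and 30.3% lower, 25.4% and 32.9%, and 27.6% and 29.7%, in the order given.

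Of 16 methyltransferases and readers of the same mark, 11 were called in DBA/2J against C57BL/6J, 3 higher and 8 lower. Cbx1, which encodes HP1 beta, was the lowest at -0.62 (SE 0.035, edgeR adjusted p 8.96e-11), and the methyltransferase Suv39h2 the highest at 0.28 (SE 0.057, edgeR adjusted p 0.000407). Against C57BL/6J, B6-13D2 had 12 called, 9 higher and 3 lower, with a median of 0.16. Uhrf1, a reader that couples H3K9 methylation to DNA methylation, was the highest at 0.68 (SE 0.035, counts divided), and Zfp644, a partner of the G9a and GLP methyltransferases, the lowest at -0.48 (SE 0.044). Between D2-13B6 and DBA/2J, 10 were called, 5 in each direction, from Cbx1 at 0.72 to Zfp644 at -0.25. These counts stand beside 60.0%, 58.3% and 57.3% of all tested genes, in that order of comparisons. By direction the shares were 29.8% higher and 30.3% lower, 25.4% and 32.9%, and 27.6% and 29.7%.

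Of 19 other histone lysine demethylases, 18 were tested. In DBA/2J against C57BL/6J, 12 were called, 1 higher and 11 lower, and in B6-13D2 against C57BL/6J, 11 were called, 1 higher and 10 lower. Between D2-13B6 and DBA/2J the majority was the other way, with 12 of 15 called genes higher. The shares of all tested genes were 29.8% higher and 30.3% lower in DBA/2J against C57BL/6J, 25.4% and 32.9% for B6-13D2, and 27.6% and 29.7% for D2-13B6 with DBA/2J. Kdm5b, an H3K4 demethylase, was the lowest in DBA/2J against C57BL/6J at -1.07 (SE 0.039, edgeR adjusted p 2.19e-13). It had 575 CPM ± 9.93 in C57BL/6J, 274 ± 11.5 in DBA/2J, 419 ± 20.6 in B6-13D2 and 417 ± 2.00 in D2-13B6. Phf2, a Jumonji protein encoded on chromosome 13, was the highest in DBA/2J against C57BL/6J at 0.29 (SE 0.056) and the lowest in D2-13B6 against DBA/2J at -0.56 (SE 0.055). Kdm7a, which acts on H3K9 and H3K27, was the highest in both congenic comparisons, at 0.20 (SE 0.060) and 1.04 (SE 0.056), with divided counts. The Y-linked Kdm5d was the lowest in B6-13D2 against C57BL/6J, at -1.94 (SE 0.106), also with divided counts.

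The Jumonji enzymes depend on 2-oxoglutarate, and 16 genes of its supply and of inhibiting metabolites were listed. In B6-13D2 against C57BL/6J, 11 of 16 were called, 10 higher and 1 lower, with a median of 0.18, beside 25.4% higher, 32.9% lower and a median of -0.04 over all tested genes. Idh2, the mitochondrial isocitrate dehydrogenase, was the highest at 0.79 (SE 0.034, edgeR adjusted p 9.47e-13), and Dlst, a subunit of the complex that consumes 2-oxoglutarate, was the called gene that was lower, at -0.16 (SE 0.036). In DBA/2J against C57BL/6J, 12 were called, 4 higher and 8 lower, with D2hgdh (divided counts) the lowest at -0.68. In D2-13B6 against DBA/2J, 10 were called, 5 in each direction, from Idh2 at 0.46 to the cytosolic Idh1 at -0.57. All tested genes had 60.0% (29.8% higher, 30.3% lower) and 57.3% (27.6% higher, 29.7% lower) called in these comparisons. Idh1 had 91.0 CPM ± 3.21 in C57BL/6J, 111 ± 3.64 in DBA/2J, 135 ± 4.25 in B6-13D2 and 75.0 ± 3.30 in D2-13B6, higher in both groups with the D2 segment.

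Kdm3a, Kdm4b and Kdm4c are known targets of the hypoxia response, for which 20 genes were listed. In B6-13D2 against C57BL/6J, 18 of 20 were called, 13 higher and 5 lower, with a median of 0.32, beside 58.3% called (25.4% higher, 32.9% lower) and a median of -0.04 over all tested genes. Egln3, a prolyl hydroxylase that the response induces, was the highest at 1.39 (SE 0.067, edgeR adjusted p 5.51e-12). The glucose transporter Slc2a1 was at 0.92 (SE 0.033). The lowest was P4ha1, a collagen prolyl hydroxylase, at -0.55 (SE 0.040), and Hif1a itself was at -0.47 (SE 0.033, counts divided); Slc2a1 and Hif1a are named here after their values were seen. Kdm4b and Kdm4c were higher in this comparison and Kdm3a was lower. Between D2-13B6 and DBA/2J, 13 of 20 were called, 7 higher and 6 lower, from Egln3 at 0.71 to P4ha1 at -0.69. In DBA/2J against C57BL/6J, 18 were called, 7 higher and 11 lower, from P4ha1 at 0.41 to Egln3 at -0.83. The shares of all tested genes called were 57.3% (27.6% higher, 29.7% lower) and 60.0% (29.8% higher, 30.3% lower). The fibroblast marker sum was lower in each congenic group than in its parental strain and higher in DBA/2J, and its part in these counts was not tested.

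**Figure D5:**
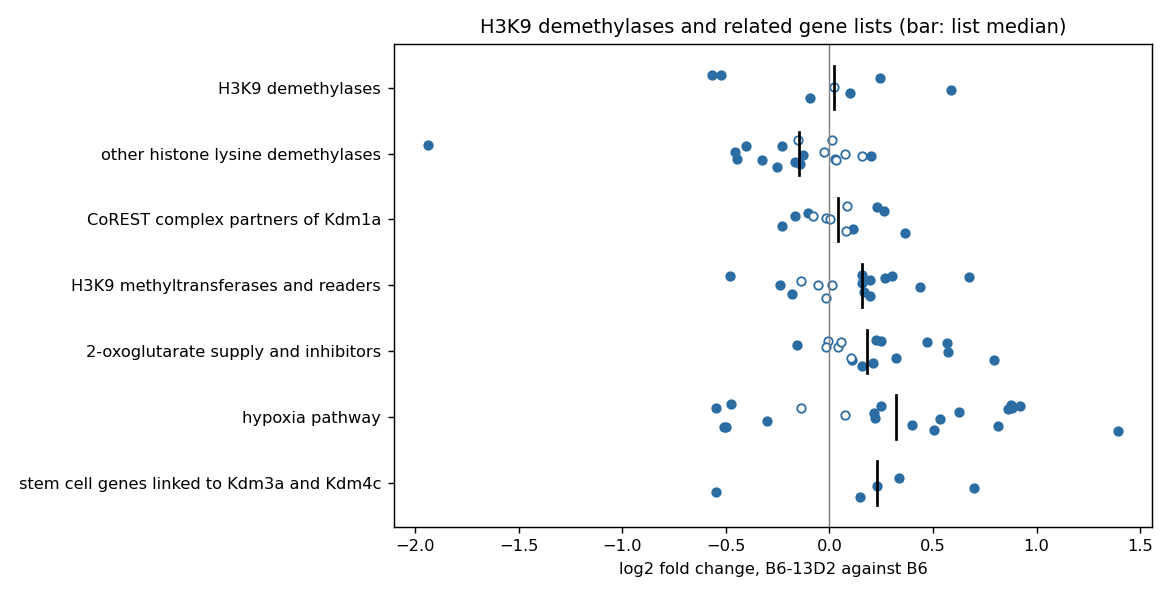
Log2 fold change in B6-13D2 against C57BL/6J (horizontal axis) of the 7 H3K9 demethylases and of each related list, 1 point per gene, filled where the edgeR adjusted p was under 0.05, with a bar at each list's median and vertical scatter only for legibility. The demethylases span -0.57 to 0.59 around a median of 0.02, and the hypoxia list has the highest median, 0.32.

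Stem cell genes that earlier work linked to Kdm3a (Tcl1, Tfcp2l1 and Zfp57) and Kdm4c (Nanog), and Pou5f1, which was linked upstream of both, were listed too; Tfcp2l1, Nanog and Pou5f1 are also among the 8 stem cell markers. All 5 were lower in DBA/2J than in C57BL/6J, from Tcl1 at -0.17 to Tfcp2l1 at -0.98. In B6-13D2 against C57BL/6J, all 5 were called, 4 higher, and Zfp57 was lower at -0.55 (SE 0.040, edgeR adjusted p 1.62e-09), beside -0.57 for Kdm3a. In D2-13B6 against DBA/2J all 5 were higher, with Zfp57 at 0.67 (SE 0.040, edgeR adjusted p 1.59e-10). Zfp57, a zinc finger protein that keeps imprints methylated, had 508 CPM ± 1.98 in C57BL/6J, 272 ± 17.2 in DBA/2J, 348 ± 10.4 in B6-13D2 and 432 ± 6.69 in D2-13B6. It was thus higher in both groups with the B6 segment, as Kdm3a was, and its segment difference was -0.61 (edgeR adjusted p 3.02e-11). Tcl1 and Tfcp2l1 went the other way from Kdm3a on the B6 background, at 0.70 (SE 0.045, edgeR adjusted p 3.35e-10) and 0.34 (edgeR adjusted p 8.31e-08). Nanog was at 0.23 and 0.36 in the congenic comparisons, where Kdm4c was at 0.24 and 0.49, with divided counts for Nanog and Pou5f1. Of all tested genes, 30.3% were lower in DBA/2J against C57BL/6J, 25.4% higher and 32.9% lower in B6-13D2 against C57BL/6J, and 27.6% higher in D2-13B6 relative to DBA/2J.

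For each member, the 2 genes of 11777 with at least 100 counts per library on average that stayed closest to it across the 12 libraries were found. Closeness is the root mean square difference of log2 CPM after each gene is centred on its own mean. Kdm1a, whose own root mean square deviation was 0.19, was closest to Prmt5 (0.034) and Pprc1 (0.035). Kdm3a (0.23) was closest to Cggbp1 on chromosome 16 (0.048), which had 262 CPM in C57BL/6J, 190 in DBA/2J, 179 in B6-13D2 and 239 in D2-13B6, and then to Atad2b (0.067). Kdm3b (0.15) was closest to Nup153 (0.030) and Ahctf1 (0.032), and Jmjd1c (0.27) to Sh3bp4 (0.060) and Slc20a1 (0.080). Kdm4b (0.32) was closest to Prrc1 (0.054) and Rragd (0.054), and Kdm4c (0.25) to Baz2a (0.052) and Pole (0.056). Kdm4a varied little (0.059), so its closest genes, Wdr18 (0.036) and Adrm1 (0.038), share mostly a small range. Counts of Ahctf1, Slc20a1 and Adrm1 were divided. These are descriptions over libraries that share groups, with no test.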

How the data were processed

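Libraries of mRNA were read as 150 bp pairs, per the labels' protocols. The authors deposited expected counts, estimated read counts per gene that need not be whole, which the deposited table's title credits to EMASE. The submitters' processing notes name mm10, Bowtie 1.0.0 and edgeR 3.34.1 without their roles; annotation, filters and strand use are not given in the sources used here. Every column mapped to a library (0 left out). Of 43346 gene IDs, 42462 matched GENCODE M21, and the other 884 held 0.361% of the counts. Groups and replicate numbers come from the titles.

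Expected counts were rounded and tested with edgeR 4.0.16 (R 4.3.3). Genes were kept by filterByExpr (minimum count 10) and scaled by TMM; 1 quasi-likelihood model held the 4 groups of 3, with Benjamini-Hochberg adjustment over 17148 genes within each contrast at 0.05. A standard error is |log2 fold change| over √F. The averaged contrasts weight each group by 0.5. Alternatives were DESeq2 1.42.0, RLE size factors, library totals only, 2 other filters (none; mean CPM from 1 up), fits to only the libraries compared, a replicate block, and omission of single libraries. Named genes were all members, the highest and lowest called gene of each list in 3 comparisons, related genes of close role and the 2 most alike genes; 1 gene that this rule names is not reported here. Members and lists were chosen with earlier results of these data known. Precision is limited by 3 libraries per group.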

Additional observations from a re-analysis of the deposited data

Results flagged for a closer look

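The difference between the D2 and the B6 segment was itself compared between the backgrounds, as the value on the B6 background minus that on the D2 background. In this design that equals both congenic groups minus both parental groups, so anything the congenic libraries share is included. Of the 7 genes, 5 passed (edgeR, adjusted p under 0.05), beside 64.5% of all tested genes. The difference was -0.75 (SE 0.051, edgeR adjusted p 3.83e-10) for Jmjd1c, 0.75 (SE 0.061, edgeR adjusted p 5.39e-09) for Kdm4b and 0.73 (SE 0.069, edgeR adjusted p 3.62e-08) for Kdm4c. It came to -0.29 (SE 0.057, edgeR adjusted p 0.000242) for Kdm3a and 0.14 (SE 0.053, edgeR adjusted p 0.0263) for Kdm1a. Kdm4b and Kdm4c were higher, and Jmjd1c lower, in both congenic lines than in the parental strain of their background. Kdm3a had segment differences of the same sign on both backgrounds, larger on B6. For Kdm1a the call was lost without C57BL/6J replicate 3, DBA/2J replicate 2, B6-13D2 replicate 1, D2-13B6 replicate 1 or D2-13B6 replicate 3, with edgeR adjusted p from 0.0506 to 0.0885. With library totals only, the difference of Kdm3a was -0.14 (edgeR adjusted p 0.0305) and that of Kdm1a 0.29 (edgeR adjusted p 0.000192). Kdm4a and Kdm3b did not pass. Kdm4a passed, however, with RLE size factors (0.16, edgeR adjusted p 0.00899), DESeq2 (0.16) and library totals only (0.24, edgeR adjusted p 0.000383), and without DBA/2J replicate 1 (edgeR adjusted p 0.018) and Kdm3b without B6-13D2 replicate 1 (0.0345).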

How the results depend on the processing

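With the replicate block, the counts of called demethylases were 6 in DBA/2J against C57BL/6J, 6 in B6-13D2 against C57BL/6J and 5 in D2-13B6 against DBA/2J, and none of the 63 values of a member in a contrast changed its call. Residuals around the group mean correlated at -0.011 on average over the 18 pairs of libraries with a shared number, so the numbers showed no pairing. Over the 6 contrasts of pairs of groups under 19 settings, and the 3 averaged contrasts under 18 (all but the fit to only the libraries compared), no count of genes or of demethylases moved by over 1.5 times. Across libraries left out, 9317 to 10324 genes were called in DBA/2J against C57BL/6J, and 6 demethylases each time. The count of called demethylases ran from 4 to 6 in B6-13D2 against C57BL/6J and in congenic minus parental groups. It ran from 4 to 5 in D2-13B6 against either parental strain and for the segment, and from 6 to 7 for the background. No difference of a member that was called changed sign under a setting. Uncalled differences did. Kdm4a in DBA/2J against C57BL/6J became 0.029 with DESeq2, 0.029 with RLE size factors, 0.016 with library totals only and 0.026 at a mean CPM of at least 1. Kdm4a in D2-13B6 against C57BL/6J became 0.024, 0.024 and 0.076 with the first 3 of these, and 0.035 with only the libraries compared. In D2-13B6 against DBA/2J, Kdm3b and Kdm4a became 0.056 and 0.060 with library totals only and 0.0088 and 0.013 with no filter. Library totals also gave 0.015 for Jmjd1c in B6-13D2 against DBA/2J, 0.014 for Kdm4b in D2-13B6 against C57BL/6J and 0.019 for Kdm3b in congenic minus parental groups. With 1 library left out, values ran from -0.0084 to 0.040 for Kdm1a in B6-13D2 against C57BL/6J, from -0.024 to 0.00011 for Kdm3b and -0.031 to 0.030 for Kdm4a in D2-13B6 against DBA/2J, and from -0.051 to 0.0099 for Jmjd1c in B6-13D2 against DBA/2J. Library totals moved all genes of D2-13B6 against C57BL/6J by 0.11 on the log2 scale relative to TMM. The share of called genes that were higher moved from 43.5% to 53.6% in B6-13D2 against C57BL/6J, from 41.5% to 57.0% in D2-13B6 against C57BL/6J, from 48.2% to 57.9% in D2-13B6 against DBA/2J and from 48.2% to 58.4% in congenic minus parental groups with library totals, and from 37.7% to 48.3% for the segment with DESeq2. The 7 genes had 806 to 9067 counts per library. Library totals moved the difference of segment effects between backgrounds by 0.14. Differences of the demethylases of up to these sizes are within reach of the scaling; apart from the constructions of the settings, the cause was not tested.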
